A study of Mus musculus with 11 samples.

Results

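Potassium channel subunits were followed across 3 sensory nuclei of the newborn mouse thalamus. Gene identifiers were matched to mouse symbols, and every symbol made of Kcn, a family letter or letters and a number was kept, which gave 92 genes of 54752 in the count files. All 92 are protein-coding, and 87 had at least 1 count in some library. The genes were chosen by name and not by their values.

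The neurons came from the dorsolateral geniculate nucleus (dLG, the visual relay; n = 4 libraries), the ventral posteromedial nucleus (VPM, the whisker and face relay; n = 4) and the ventral medial geniculate nucleus (MGv, the auditory relay; n = 3). All 11 libraries were from postnatal day 0 mice of the ICR/CD-1 strain with the genotype Gbx2CreER-IRES-EGFP/+::R26lsl-tdTomato/+, in which tamoxifen-induced Cre under the control of Gbx2, a gene of early thalamic neurons, turns on the red protein tdTomato. Red cells were sorted from each dissected nucleus, and each library pooled the brains of 4 mice, so the values describe labelled cells that had switched on Gbx2 and not every cell of a nucleus. There was no untreated or wild-type group, and every animal carried the same alleles and received tamoxifen.

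Potassium channels let potassium leave the cell and so set the resting potential, end the action potential and space out firing. Voltage-gated pores (the Kcna, Kcnb, Kcnc, Kcnd, Kcnq and Kcnh families) open on depolarisation, calcium- and sodium-activated pores (Kcnma1, Kcnn, Kcnt) follow activity, inward rectifiers (Kcnj) and leak channels (Kcnk) hold the cell at rest, and auxiliary subunits (Kcnab, Kcne, Kcnip, Kcnmb) change how a pore is delivered and gated. In thalamic relay neurons, A-type currents, leak currents and small-conductance calcium-activated currents are known to shape burst and tonic firing.

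The start-site windows of 4 members are shown because each leads 1 of the patterns described below: Kcnip3 was lowest in VPM, Kcnip1 was highest in dLG, Kcnab1 was lowest in dLG and Kcnd2 was highest in MGv. The sequences are RefSeq windows on GRCm38.p6, from 250 bases before to 50 bases after an annotated start, 5′ to 3′ on the gene's strand, and capitals mark a match to 1 of 5 motifs on either strand.
Kcnip3, minus strand, chr2:127522045-127522344: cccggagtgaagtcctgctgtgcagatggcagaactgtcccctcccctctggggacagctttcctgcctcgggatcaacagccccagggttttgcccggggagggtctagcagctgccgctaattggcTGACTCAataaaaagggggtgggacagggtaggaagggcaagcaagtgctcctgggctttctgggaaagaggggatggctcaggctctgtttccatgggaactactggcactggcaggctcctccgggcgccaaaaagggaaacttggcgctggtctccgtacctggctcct
Kcnip1, minus strand, chr11:33993144-33993443: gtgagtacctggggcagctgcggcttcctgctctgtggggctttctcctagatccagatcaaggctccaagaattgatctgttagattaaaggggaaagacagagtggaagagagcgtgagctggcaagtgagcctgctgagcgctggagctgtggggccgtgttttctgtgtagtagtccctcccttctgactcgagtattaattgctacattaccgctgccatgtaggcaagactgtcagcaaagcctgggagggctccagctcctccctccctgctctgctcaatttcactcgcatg
Kcnab1, plus strand, chr3:65108764-65109063: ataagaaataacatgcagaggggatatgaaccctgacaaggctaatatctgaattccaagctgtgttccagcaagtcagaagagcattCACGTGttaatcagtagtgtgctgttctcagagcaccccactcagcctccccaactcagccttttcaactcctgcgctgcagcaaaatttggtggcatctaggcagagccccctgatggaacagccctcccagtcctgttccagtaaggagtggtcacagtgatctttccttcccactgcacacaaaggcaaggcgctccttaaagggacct
Kcnd2, plus strand, chr6:21215096-21215395: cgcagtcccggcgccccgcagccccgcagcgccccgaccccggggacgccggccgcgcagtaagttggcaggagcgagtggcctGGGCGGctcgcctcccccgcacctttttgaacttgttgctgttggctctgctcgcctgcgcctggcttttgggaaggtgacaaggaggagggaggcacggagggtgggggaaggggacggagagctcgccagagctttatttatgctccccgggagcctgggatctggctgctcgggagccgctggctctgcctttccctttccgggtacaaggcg
In the Kcnip3 window the capitals are an AP-1 motif (TGANTCA) at position -122 from the start, in the Kcnab1 window an E-box (CACGTG) at -162, and in the Kcnd2 window a GC box (GGGCGG) at -166. The Kcnip1 window held none of the 5 motifs, which also included a CRE (TGACGTCA) and a TATA box (TATAAA). None of the matches overlapped another motif. Among all 32851 windows of this length, 7.81% held the AP-1 motif, 7.15% the E-box and 35.7% the GC box. Of the 92 members, 67 had at least 1 window in this set. The Kcnab1 window starts from a RefSeq site 370 bases from the gene start in the annotation used here, and the Kcnd2 window from a site 157 bases away.

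Libraries held 10175653 to 23559130 counted reads, at most 13164909 in MGv, and 3 counts corresponded to 0.129 to 0.291 CPM, the unit in which a library's counts are scaled to a common total with TMM factors. Summed pan-neuronal markers ran from 10812 to 15394 CPM over all libraries, and thalamic relay markers from 1742 to 2948 CPM. These sums hide differences in single genes. Gbx2, the gene behind the red label, averaged 29.4 CPM in dLG, 35.3 in VPM and 304 in MGv. By means, Tcf7l2, Lhx2 and Rbfox3 were also highest in MGv, Rora in dLG, and Snap25 and Nefl in VPM. Slc17a6 and Lef1 were lowest in MGv. The ranges of Tubb3, Syt1 and Elavl4 overlapped across nuclei. The part of these markers in the results was not tested. GABAergic markers summed to at most 5.19 CPM. Of the oligodendrocyte lineage list, which ranged from 12.5 to 30.2 CPM in dLG, 32.7 to 43.4 in VPM and 74.9 to 85.9 in MGv, nearly all was Mbp, while Olig2, Sox10 and Pdgfra stayed at or under 0.389 CPM. Radial glia and astrocyte markers summed to 80.5 to 171 CPM in dLG, 119 to 179 in VPM and 126 to 232 in MGv. Of the 8 genes in this list, Slc1a3 had 1.1 to 17.9 CPM in dLG, 3.23 to 10.3 in VPM and 45.5 to 90.3 in MGv, Aldoc had 2.1 to 11.8, 27.9 to 46.6 and 16.6 to 19.5, Fabp7 had 29.3 to 122, 46.3 to 103 and 12 to 76.9, and Gfap was at most at 0.0865 CPM. Microglial markers summed to 5.23 to 22.6 CPM, habenular markers to 8.49 to 40.7, pericyte markers to 1.84 to 6.26 and endothelial markers to 0.292 to 6.35, with Cdh5 at 0 throughout. Erythroid genes summed to 514 CPM in dLG 3 and to at most 11.7 CPM in any other library. A list of 9 genes that respond to cell dissociation (Fos, Jun, Egr1 and others) was lowest in VPM, at 214 to 291 CPM against 387 to 560 in dLG and 497 to 619 in MGv. The libraries dLG 2, VPM 3 and MGv 1 stood apart with Hspa8, a heat shock chaperone, at 3.05 to 5.56 CPM against 159 to 581 CPM in the others.

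The summed level of the members was alike in range across the nuclei, and the differences lay in single subunits. Over all 92, they made up 1077 to 1234 CPM in dLG, 883 to 1360 in VPM and 1059 to 1314 in MGv, with overlapping ranges. Of the 92, 66 passed the filter on low counts and were tested among 15907 genes by the quasi-likelihood test of edgeR, and a gene was called at a Benjamini-Hochberg (BH) adjusted p under 0.1. Called in at least 1 of the 3 contrasts were 30 of the 66 members, 45.5%, beside 28.3% of all genes tested. Since these are bulk samples, fewer cells of a type and less RNA per cell cannot be told apart in any of the values that follow.

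Between dLG and VPM, 21 of the 66 members were called (31.8%, beside 10.7% of all genes). Of these, 6 were higher in dLG, where the share of all genes was 4.97%, and 15 were higher in VPM, where it was 5.74%. Between dLG and MGv, 13 members were called (19.7%, beside 16.1%), 4 of them higher in dLG (8.61% of all genes) and 9 higher in MGv (7.49%). Between VPM and MGv, 17 members were called (25.8%, beside 19.0%), with 8 higher in VPM (10.4% of all genes) and 9 higher in MGv (8.56%). The share of members called was thus above the background between dLG and VPM and nearer to it in both contrasts with MGv. Some genes of the glial lists also differed in these contrasts. Slc1a3 was 11.3-fold higher in MGv than in dLG and 10.1-fold higher than in VPM (adjusted p = 0.00444 and 0.00626). Mbp was 6.67-fold and 2.37-fold higher in MGv (0.00018 and 0.0281). Aldoc was 5.71-fold lower in dLG than in VPM and 2.99-fold lower than in MGv (0.00103 and 0.0178). Of 7 tested radial glia and astrocyte genes, 1 was called between dLG and VPM and 2 in each contrast with MGv. Slc1a2, Fabp7, Aldh1l1 and Gja1 were not called in any contrast. Fabp7 was by means lowest in MGv, at 65.5, 64.5 and 35.3 CPM in dLG, VPM and MGv. The part of these markers in the members' differences was not tested. The dLG against VPM count was 13 without dLG 3, 11 without VPM 1 or without VPM 2 and 13 without VPM 4, and the VPM against MGv count was 11 without VPM 2. Shares of all genes were not computed for these smaller fits, so the comparison with the background holds for the full fit only.

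The median log2 fold change of the 66 members was close to 0 in each contrast, at -0.052 for dLG over VPM, -0.046 for dLG over MGv and -0.012 for VPM over MGv, beside 0.005, 0.015 and 0.022 over all genes. Disregarding sign, the median was 0.559, 0.471 and 0.495 for the members and 0.271, 0.324 and 0.362 for all genes. The size of a fold change depends on the count level, and the members were not matched to all genes by level.

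Enrichment in a nucleus was defined as being higher in it than in both others, with both contrasts called. By this rule Kcnip1 was enriched in dLG (1 member, beside 2.04% of all genes), 5 members in VPM, among them Kcna4, Kcnd3, Kcne4 and Kcns3 (beside 2.41%), and Kcnd2 in MGv (1 member, beside 3.66%). Conversely, 7 members were lowest in dLG with both contrasts called (Kcna4, Kcnab1, Kcnd2, Kcnh7, Kcnk3, Kcnk4 and Kcnmb2, beside 2.18% of all genes), 4 in VPM (Kcnab3, Kcnc2, Kcnip3 and Kcnt2, beside 1.97%) and 3 in MGv (Kcna1, Kcne4 and Kcnn1, beside 5.22%). Kcna4, Kcnd2 and Kcne4 were called in all 3 contrasts, with a different order of the nuclei in each. The VPM list held 0 members without VPM 1 or without VPM 2, Kcna4 alone without VPM 4, 2 members without dLG 3, dLG 4 or MGv 2 and 3 without dLG 1, dLG 2 or MGv 1. The dLG list gained Kcnn1 without dLG 2 and Kcnab3 without MGv 1 or without VPM 3, and Kcnd2 lost its place in MGv without any 1 of MGv 1, MGv 3, VPM 2, VPM 3 and VPM 4.

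**Figure D1:**
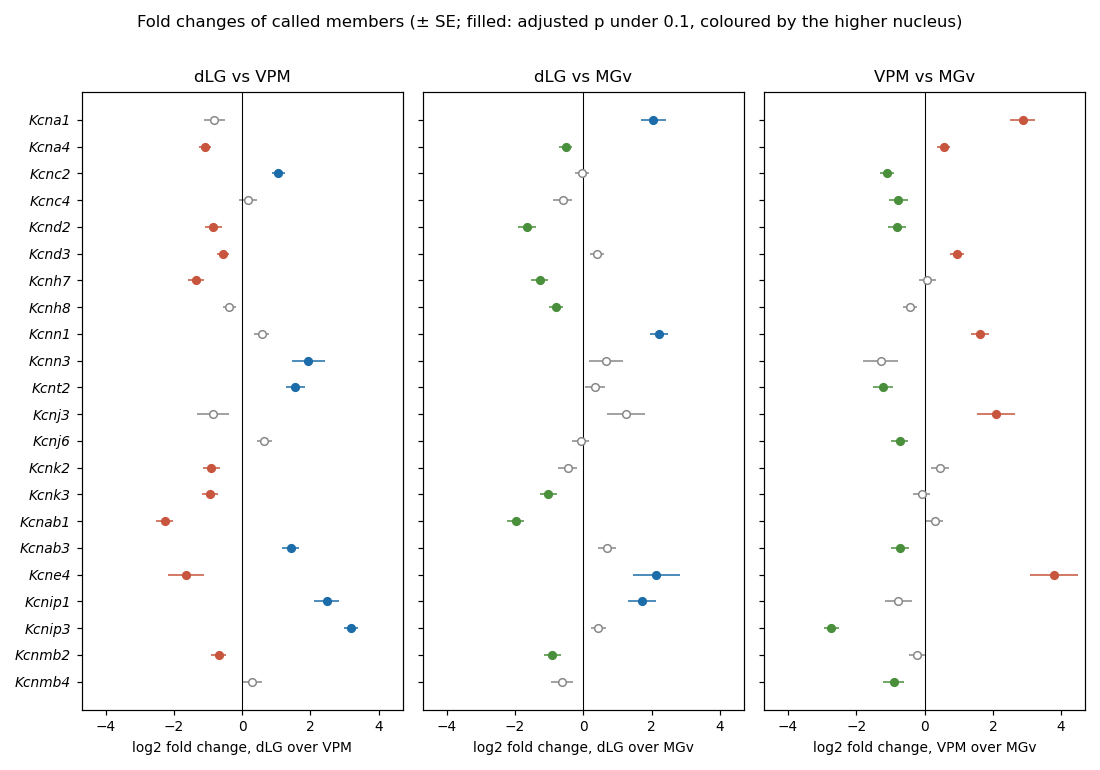
Log2 fold changes (x axis, with the standard error as a bar) of 22 called members with at least 5 CPM in some nucleus, for dLG over VPM, dLG over MGv and VPM over MGv. Filled points passed an adjusted p of 0.1 and take the colour of the nucleus with the higher level (blue dLG, red VPM, green MGv), and Kcnip3, at 3.18 over VPM and 0.44 over MGv, shows how a member can part VPM from both other nuclei.

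Levels between genes can be compared only per length, so CPM was divided by kilobases of exon. On this scale the leak channel subunit Kcnk1 (TWIK1) was the most abundant member, with a mean of 33.8 CPM per kb over the 11 libraries. Its nucleus means of 31.1 in dLG, 31.9 in VPM and 39.8 in MGv did not pass the test in any contrast (adjusted p from 0.293 to 0.948). By the same mean over the 11 libraries, Kcnip4, a calcium sensor of A-type channels, was at 11.6 CPM per kb, Kcnn1 at 10.3, Kcnd2 at 10.1 and Kcnj9, an inward rectifier subunit gated by G proteins, at 9.16. This order was not that of each nucleus. In dLG, Kcnn1 and Kcnip1 (both 15.5 CPM per kb) were above Kcnip4 (12.5) and Kcnd2 (5.36), while in MGv Kcnd2 (16.9) was above Kcnip4 (10.2) and Kcnn1 (3.35). Kcnip4 and Kcnj9 were not called in any contrast. Neither were Kcnc1, the most abundant Kcnc member at 8.05 CPM per kb, Kcns1, the leading silent subunit at 6.22, and Kcnma1, the BK calcium-activated pore, at 5.12. Kcnh8, an ELK pore, averaged 5.91 CPM per kb and was called in 1 contrast. Among the Kcna members, Kcna1 was above Kcna4 in the means of dLG (4.7 against 3.45 CPM per kb) and VPM (8.25 against 7.33) and below it in MGv (1.13 against 4.97).

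**Figure D2:**
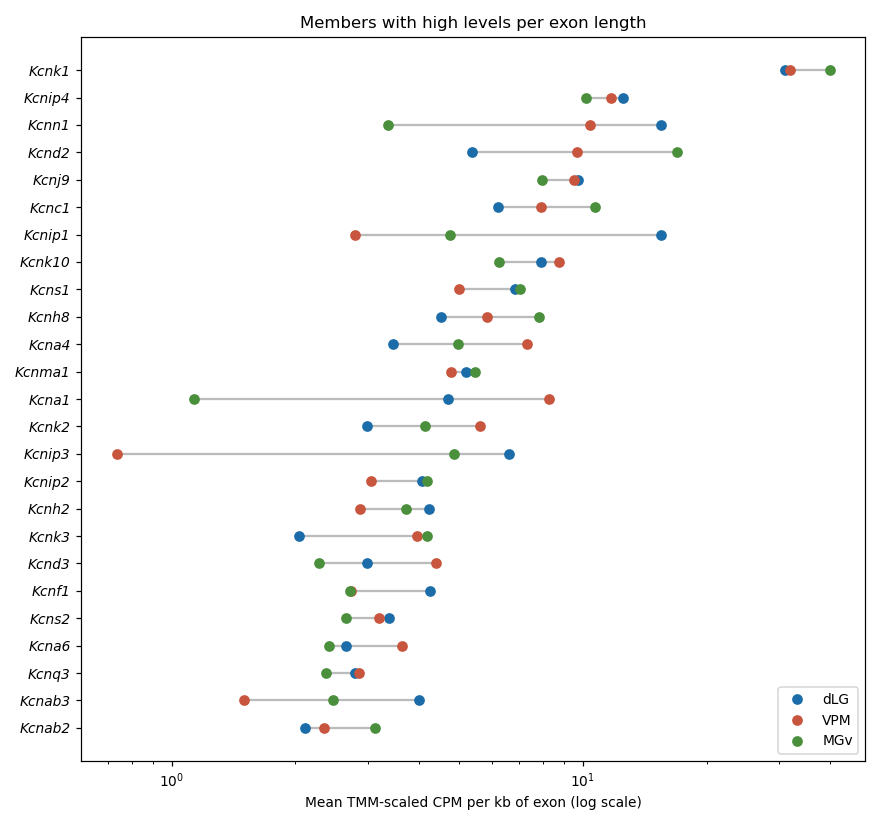
Mean CPM per kb of exon (x axis, log scale) in dLG, VPM and MGv for 25 members with high levels over all libraries. Kcnk1 stands at 31.1 to 39.8 with its 3 points close together, whereas the points of Kcnip1, Kcnip3, Kcna1 and Kcnn1 lie far apart; where points coincide the last drawn covers the other.

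The 26 members that failed the filter were at most at 1.75 CPM (Kcnk6) in any library. Kcna10, Kcne1, Kcnj1, Kcnk16 and Kcnmb3 had no count in any library. The other 21 were Kcna3, Kcna7, Kcne2, Kcne3, Kcng1, Kcng3, Kcng4, Kcnh3, Kcnj2, Kcnj4, Kcnj8, Kcnj13, Kcnj15, Kcnk5, Kcnk6, Kcnk15, Kcnk18, Kcnmb1, Kcnn4, Kcnq1 and Kcnv2. None of the 26 was tested for a difference between nuclei.

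Among the Kcna family (Kv1 pores, with low activation thresholds, many of them axonal), 5 of 8 members were tested and 3 were called in at least 1 contrast. The share of all genes so called was 28.3%, which applies to each family count below, and no family count was tested against it. Kcna1 (ENSMUSG00000047976, chr6:126640397-126646384, minus strand of GRCm38) forms fast-opening channels that damp repetitive firing. It stood at 23.6, 11.5, 27.5 and 27.3 CPM in dLG 1 to 4, at 55.8, 36.6, 20.3 and 44.9 in VPM 1 to 4 and at 5.18, 5.09 and 5.93 in MGv 1 to 3. MGv was below every library of both other nuclei, whereas dLG and VPM overlapped, with VPM 3 within the dLG range. Kcna1 was 4.16-fold higher in dLG than in MGv (log2 fold change 2.05 ± 0.36 SE, adjusted p = 0.00178) and 7.31-fold higher in VPM than in MGv (2.87 ± 0.37, adjusted p = 0.000172). Between dLG and VPM its log2 fold change of -0.81 ± 0.30 did not pass (adjusted p = 0.129).

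Kcna4 (ENSMUSG00000042604, chr2:107290639-107298502, plus strand), the inactivating A-type member of the family, held 18.6, 18.9, 15.7 and 13.5 CPM in dLG, 40.5, 37.9, 31.3 and 32.1 in VPM and 19.7, 23.4 and 29.0 in MGv. The 3 ranges did not overlap, with VPM on top and dLG at the bottom. VPM exceeded dLG 2.12-fold (log2 fold change dLG over VPM -1.09 ± 0.17, adjusted p = 0.0015) and MGv 1.48-fold (0.56 ± 0.19, adjusted p = 0.067), and MGv exceeded dLG 1.44-fold (dLG over MGv -0.52 ± 0.19, adjusted p = 0.0917). Without MGv 1, MGv 2, VPM 1 or VPM 2 the VPM against MGv call was lost (adjusted p up to 0.219), as it was in the 8 libraries outside the trio with low Hspa8 (0.133). The dLG against MGv call was lost without any library other than dLG 2, MGv 1 and VPM 3 (up to 0.337).

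With Kcna1 low in MGv and Kcna4 not, the balance of these subunits was another in MGv. Per exon length, Kcna4 over Kcna1 was 0.489 to 1.63 in dLG, 0.705 to 1.52 in VPM and 3.76 to 4.83 in MGv. Kcna5, a rare member with 4, 46 and 4 counts in all of dLG, VPM and MGv, was called higher in VPM than in dLG (adjusted p = 0.075), a call lost without dLG 1 or dLG 3 (0.171), and too few counts were left for a test without dLG 2, dLG 4, VPM 1, VPM 2 or VPM 4. Kcna2 and Kcna6 were tested and not called.

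The Kcnab genes encode the cytoplasmic beta subunits that bind Kcna pores, and 2 of the 3 differed between nuclei in opposite directions. Kcnab1 (ENSMUSG00000027827, chr3:65109384-65378223, plus strand), which gives such channels fast inactivation, stood at 4.44, 6.49, 5.01 and 5.39 CPM in dLG, 33.0, 30.5, 15.5 and 24.4 in VPM and 17.2, 23.4 and 22.7 in MGv. Every dLG library was below every library of the other nuclei. The difference was 4.83-fold against VPM (dLG over VPM -2.27 ± 0.24, adjusted p = 5.26e-05) and 3.94-fold against MGv (dLG over MGv -1.98 ± 0.25, adjusted p = 0.000153), and VPM and MGv were not told apart (0.29 ± 0.25, adjusted p = 0.488).

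Kcnab3 (ENSMUSG00000018470, chr11:69326258-69333042, plus strand) ran the other way, at 10.4, 12.5, 9.37 and 13.5 CPM in dLG, 4.31, 3.29, 4.96 and 4.61 in VPM and 9.02, 4.83 and 7.39 in MGv. All dLG libraries were above all others, and MGv 2 lay within the VPM range. Kcnab3 was 2.67-fold higher in dLG than in VPM (1.42 ± 0.24, adjusted p = 0.00233) and 1.65-fold higher in MGv than in VPM (VPM over MGv -0.72 ± 0.26, adjusted p = 0.0839). That second call was lost without any library other than dLG 3, MGv 2 and VPM 3 (adjusted p up to 0.309) and in the 8 libraries outside the trio (0.22). Of the Kcnab signal per length, Kcnab1 made 7.71 to 11.2% in dLG, 31 to 50.8% in VPM and 24.6 to 36.3% in MGv, and Kcnab3 made 54.2 to 67.3%, 16.5 to 29.8% and 22.4 to 38.7%. Kcnab2 was not called.

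The Kcnd family forms the somatodendritic A-type current (Kv4), which delays the first spike. All 3 members were tested and 2 were called. Kcnd2 (ENSMUSG00000060882, chr6:21215503-21729805, plus strand) was called in all 3 contrasts, with 22.0, 45.5, 20.5 and 22.5 CPM in dLG, 66.7, 51.6, 39.5 and 41.9 in VPM and 91.8, 79.9 and 89.6 in MGv. MGv was above all other libraries, and dLG 2 lay within the VPM range. MGv exceeded dLG 3.15-fold (dLG over MGv -1.65 ± 0.26, adjusted p = 0.000877) and VPM 1.74-fold (VPM over MGv -0.80 ± 0.26, adjusted p = 0.0586), and VPM exceeded dLG 1.81-fold (dLG over VPM -0.85 ± 0.25, adjusted p = 0.0505). Without dLG 1, dLG 3, dLG 4, VPM 1 or VPM 2 the dLG against VPM call was lost (adjusted p up to 0.151), and without MGv 1, MGv 3, VPM 2, VPM 3 or VPM 4 that of VPM against MGv (up to 0.154).

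Kcnd3 (ENSMUSG00000040896, chr3:105452330-105674002, plus strand) had another order, with 30.7, 24.8, 27.8 and 31.0 CPM in dLG, 49.6, 46.4, 27.5 and 44.8 in VPM and 18.8, 21.8 and 24.9 in MGv. VPM was highest, except that VPM 3 fell among the dLG libraries. It was 1.93-fold higher in VPM than in MGv (0.95 ± 0.20, adjusted p = 0.00756) and 1.47-fold higher in VPM than in dLG (dLG over VPM -0.56 ± 0.18, adjusted p = 0.087), and the latter call held only without MGv 1, MGv 3 or VPM 3 (adjusted p up to 0.216). Kcnd2 over Kcnd3 per length was 1.34 to 1.37 in dLG 1, 3 and 4 and 3.41 in dLG 2, 1.74 to 2.67 in VPM and 6.7 to 9.1 in MGv. Kcnd2 made 83.2 to 84.9% of the Kcnd signal in MGv, against 51.1 to 72% in dLG and 58.1 to 66.4% in VPM.

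The Kcnip genes encode calcium-binding proteins that carry Kcnd pores to the membrane and set how they inactivate. Kcnip3 (ENSMUSG00000079056, chr2:127456498-127522094, minus strand), also known as calsenilin and as a transcriptional repressor, had 24.5, 20.6, 26.7 and 22.1 CPM in dLG, 2.36, 1.9, 3.41 and 2.76 in VPM and 17.5, 18.7 and 15.6 in MGv. VPM was far below both others in every library. This was the smallest adjusted p of any member, at 9.22e-07 for dLG over VPM (3.18 ± 0.21, 9.03-fold), and MGv exceeded VPM 6.64-fold (VPM over MGv -2.73 ± 0.22, adjusted p = 3.39e-06). The dLG and MGv libraries did not overlap, but their log2 fold change of 0.44 ± 0.21 did not pass (adjusted p = 0.204).

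Kcnip1 (ENSMUSG00000053519, chr11:33629339-33993152, minus strand) was the member of the family enriched in dLG. It held 101, 64.2, 101 and 117 CPM in dLG, 14.0, 13.1, 31.6 and 10.5 in VPM and 17.7, 21.4 and 49.0 in MGv. Every dLG library was above all others, and VPM and MGv overlapped. Kcnip1 was 5.57-fold higher in dLG than in VPM (2.48 ± 0.37, adjusted p = 0.000997) and 3.28-fold higher than in MGv (1.71 ± 0.41, adjusted p = 0.0128).

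Kcnip2 and Kcnip4 were not called. Kcnip1 made 35.2 to 43.7% of the Kcnip signal per length in dLG, 7.89 to 25% in VPM and 14.4 to 25.9% in MGv, and Kcnip4 made 26.6 to 37.1%, 48.1 to 76.1% and 38.8 to 45.3%. Kcnip3 was 14.4 to 21.1% in dLG, 3.1 to 4.79% in VPM and 14.4 to 24.8% in MGv. Per length, Kcnip1 over Kcnip4 was 0.947 to 1.63 in dLG, 0.104 to 0.425 in VPM and 0.317 to 0.669 in MGv, so that Kcnip4 was above Kcnip1 in every VPM and MGv library and in dLG 3 but not in dLG 1, 2 or 4. The dissociation genes were also lowest in VPM, as Kcnip3, Kcnab3, Kcnc2 and Kcnt2 were, with 4 of the 9 called higher in dLG and 5 called higher in MGv than in VPM; their part in these results was not tested.

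**Figure D3:**
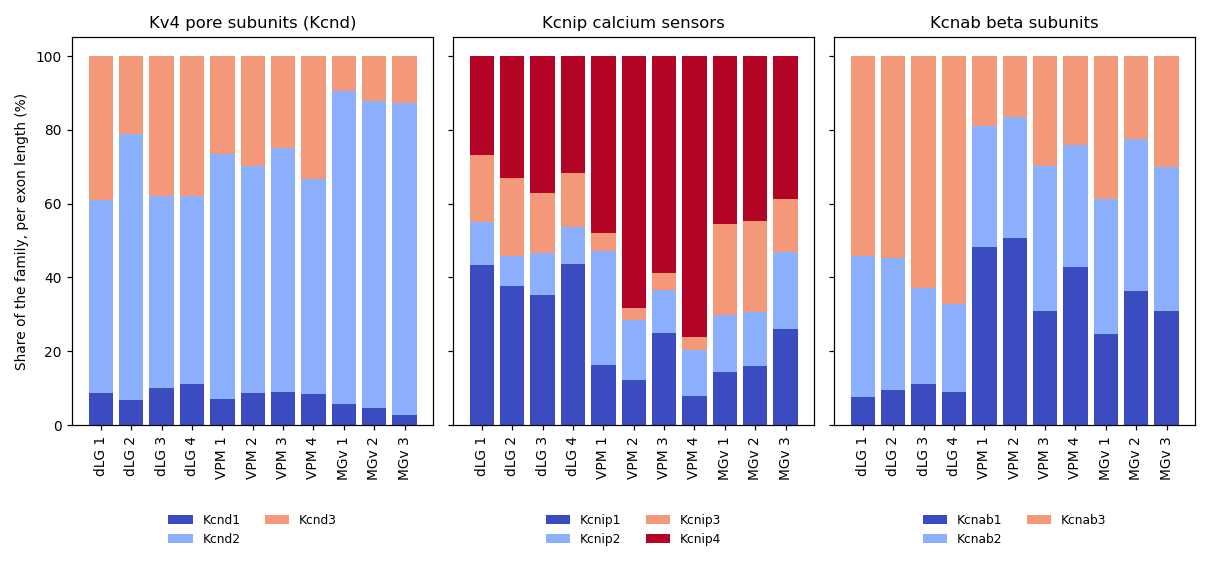
Share of each member in its family's CPM per exon length (y axis, percent of the family) in the 11 libraries, for the Kcnd pores, the Kcnip sensors and the Kcnab beta subunits. Kcnd2 takes 83.2 to 84.9% in the MGv bars, Kcnip1 35.2 to 43.7% in the dLG bars, and Kcnab3 54.2 to 67.3% in the dLG bars.

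Of the other auxiliary subunits, Kcne4 (ENSMUSG00000047330, chr1:78816758-78820028, plus strand), a small membrane protein that inhibits several voltage-gated pores, was scarce and highest in VPM. It had 2.86, 1.5, 1.69 and 1.91 CPM in dLG, 7.93, 5.54, 3.97 and 7.42 in VPM and 0.225, 0 and 1.17 in MGv, where these are 3, 0 and 12 counts. The 3 ranges did not overlap. VPM exceeded MGv 13.8-fold (log2 fold change 3.79 ± 0.70, adjusted p = 0.00276) and dLG 3.13-fold (dLG over VPM -1.65 ± 0.52, adjusted p = 0.073), and dLG exceeded MGv 4.41-fold (2.14 ± 0.69, adjusted p = 0.0609). The dLG against VPM call was lost without dLG 2, dLG 3, dLG 4, VPM 1, VPM 2 or VPM 4 (adjusted p up to 0.186), and the dLG against MGv call without dLG 1, MGv 1 or MGv 2 (up to 0.194) and in the 8 libraries outside the trio (0.138). Without MGv 3, which held 12 of the MGv counts, the log2 fold changes were 5.63 for VPM over MGv and 3.97 for dLG over MGv, both against the 3 counts left in MGv.

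The beta subunits of BK channels, which tune the calcium response of Kcnma1, were at 10.9 CPM or less in any library. Kcnmb2 averaged 5.08 ± 1.41 CPM (SD, n = 4, 4 and 3 here and below) in dLG, 8.18 ± 0.773 in VPM and 9.58 ± 0.38 in MGv, and was lower in dLG than in VPM (adjusted p = 0.0845) and than in MGv (0.023). The former call held only without dLG 2, MGv 3 or VPM 3 (adjusted p up to 0.219). Kcnmb4 averaged 5.11 ± 1.83, 4.16 ± 0.951 and 7.88 ± 2.63 CPM and was called only between VPM and MGv (adjusted p = 0.0802), a call lost without dLG 1, MGv 1, MGv 3, VPM 2, VPM 3 or VPM 4 (up to 0.328) and in the 8 libraries outside the trio (0.117). Exons of antisense genes cover 31.5% of the Kcnmb4 exon length, and the strand setting of the counting is not given in the sources used here, so reads of the 2 strands cannot be told apart. Kcnma1 itself, at 64 to 101 CPM over all libraries, was not called.

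**Figure D4:**
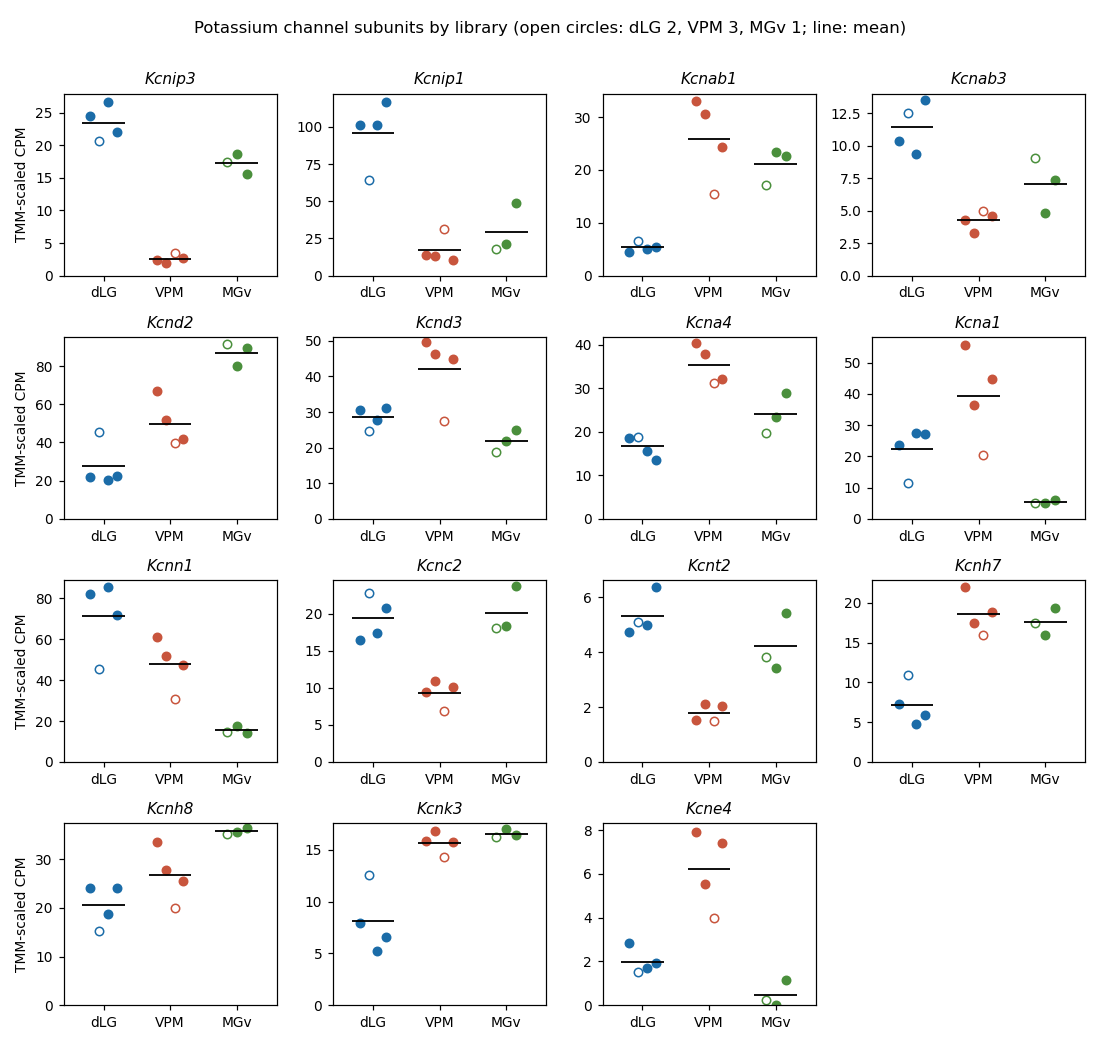
CPM (y axis, scaled with TMM factors, each panel on its own scale from 0) of 15 members in every library of dLG, VPM and MGv; a point is a library, a line the mean of the nucleus, and open circles mark dLG 2, VPM 3 and MGv 1. Kcnip3 lies at 1.9 to 3.41 in VPM and at 15.6 or above elsewhere, and Kcnab1 at 4.44 to 6.49 in dLG and at 15.5 or above elsewhere.

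Of the calcium- or sodium-activated pores, with which Kcnu1 was counted by its symbol, 7 of 8 members were tested and 3 called, beside 28.3% of all genes. Kcnn1, Kcnn2 and Kcnn3 encode the small-conductance calcium-activated pores that produce the pause after a spike. Kcnn1 (ENSMUSG00000002908, chr8:70842049-70863258, minus strand) had 82.1, 45.3, 85.4 and 71.9 CPM in dLG, 61.0, 51.7, 30.6 and 47.5 in VPM and 14.5, 17.5 and 14.2 in MGv. MGv was below all libraries of the other nuclei, whose ranges overlapped. Kcnn1 was 4.62-fold higher in dLG (2.21 ± 0.26, adjusted p = 8.83e-05) and 3.1-fold higher in VPM than in MGv (1.63 ± 0.26, adjusted p = 0.000842). The dLG over VPM log2 fold change of 0.58 ± 0.22 did not pass (adjusted p = 0.149).

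Kcnn2 was not called, and its share of the Kcnn signal per length was 25.9 to 33.7% in MGv against 8.32 to 13.7% in dLG and 10.3 to 15.8% in VPM. Kcnn3 averaged 7.05 ± 2.85 CPM in dLG, 1.81 ± 1.23 in VPM and 4.47 ± 1.42 in MGv and was 3.84-fold higher in dLG than in VPM (1.94 ± 0.48, adjusted p = 0.0238). Kcnt2 (ENSMUSG00000052726, chr1:140246158-140612067, plus strand), a sodium-activated pore, had 4.75, 5.11, 5.01 and 6.39 CPM in dLG, 1.53, 2.12, 1.49 and 2.04 in VPM and 3.83, 3.42 and 5.44 in MGv. VPM was below both others in every library, 2.95-fold against dLG (1.56 ± 0.27, adjusted p = 0.00267) and 2.34-fold against MGv (VPM over MGv -1.23 ± 0.29, adjusted p = 0.0131). The related Kcnt1, and Kcnu1, known as a sperm channel and here at 6.16 to 12.6 CPM, were not called.

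The Kcnc family (Kv3) makes the fast-closing channels of high-frequency firing, and all 4 members were tested. Kcnc2 (ENSMUSG00000035681, chr10:112271121-112467024, plus strand) had 16.4, 22.8, 17.4 and 20.8 CPM in dLG, 9.46, 10.9, 6.82 and 10.1 in VPM and 18, 18.4 and 23.7 in MGv. VPM was the low nucleus, and dLG and MGv overlapped. VPM was 2.07-fold below dLG (1.05 ± 0.19, adjusted p = 0.00411) and 2.15-fold below MGv (VPM over MGv -1.10 ± 0.21, adjusted p = 0.00325). Kcnc4 averaged 8.12 ± 2.56, 7.27 ± 1.82 and 12.4 ± 0.469 CPM and passed only between VPM and MGv (adjusted p = 0.0957), a call lost without any library other than dLG 3 (adjusted p up to 0.199) and in the 8 libraries outside the trio (0.246). Kcnc1 was not called.

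Kcnb2, a delayed rectifier pore, was not called. Among the silent subunits, which only work inside such pores, 1 of 6 tested was called, beside 28.3% of all genes. Kcns3 had 6, 69 and 0 counts in dLG, VPM and MGv, and was at least 9.61-fold higher in VPM than in MGv, with MGv set at a floor of 3 counts over the group, or 0.0864 CPM. Its adjusted p was 0.0214 for dLG against VPM and 0.00766 for VPM against MGv, and it failed the filter, and so had no test, without VPM 1, VPM 2 or VPM 4.

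Kcnh genes encode the EAG, ERG and ELK pores, and 3 of the 7 tested members were called, beside 28.3% of all genes. Kcnh7 (ENSMUSG00000059742, chr2:62693414-63184287, minus strand), an ERG pore, had 7.31, 10.9, 4.74 and 5.92 CPM in dLG, 22.0, 17.4, 15.9 and 18.8 in VPM and 17.4, 16.0 and 19.3 in MGv. The dLG libraries were below all others. The difference was 2.56-fold against VPM (dLG over VPM -1.36 ± 0.24, adjusted p = 0.00287) and 2.42-fold against MGv (dLG over MGv -1.28 ± 0.25, adjusted p = 0.00413).

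Kcnh8 (ENSMUSG00000035580, chr17:52602709-52979194, plus strand), an ELK pore, had 24.1, 15.2, 18.8 and 24.2 CPM in dLG, 33.5, 27.9, 20 and 25.5 in VPM and 35.2, 35.6 and 36.4 in MGv. MGv was above every other library. It was 1.74-fold higher in MGv than in dLG (dLG over MGv -0.80 ± 0.20, adjusted p = 0.0194), and the VPM over MGv difference of -0.42 ± 0.20 did not pass (adjusted p = 0.202). Kcnh1, with 15, 39 and 40 counts in dLG, VPM and MGv, was called between dLG and MGv just inside the threshold (adjusted p = 0.1 when rounded). Its log2 fold change of -2.42 was -3.98 without dLG 1 (adjusted p = 0.0112), and the call was lost without any library other than dLG 1 and VPM 3 (up to 0.251) and in the 8 libraries outside the trio (0.293).

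Leak channels of the Kcnk family set the resting potential. Of 9 tested members 4 were called, beside 28.3% of all genes. All 4 were higher in VPM than in dLG, as were 5.74% of all genes. Kcnk3 (ENSMUSG00000049265, chr5:30588170-30625271, plus strand), the acid-sensitive TASK1 pore, had 7.98, 12.6, 5.23 and 6.59 CPM in dLG, 15.9, 16.8, 14.3 and 15.8 in VPM and 16.2, 17.0 and 16.4 in MGv. The dLG libraries were below all others, with dLG 2 the closest. Kcnk3 was 1.93-fold lower in dLG than in VPM (dLG over VPM -0.95 ± 0.23, adjusted p = 0.0243) and 2.04-fold lower than in MGv (dLG over MGv -1.03 ± 0.25, adjusted p = 0.0156).

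Kcnk4, the mechanosensitive TRAAK pore, was rarer, with 75, 325 and 133 counts in dLG, VPM and MGv, and was likewise lowest in dLG, 4.23-fold against VPM (-2.08 ± 0.35, adjusted p = 0.00237) and 4.17-fold against MGv (-2.06 ± 0.38, adjusted p = 0.00243). Exons of a gene on the same strand cover 13.1% of its exon length. Kcnk2 (TREK1) averaged 14.8 ± 1.21 CPM in dLG, 27.8 ± 9.72 in VPM and 20.4 ± 3.4 in MGv and was higher in VPM than in dLG (-0.91 ± 0.25, adjusted p = 0.0396), a call lost without dLG 1, VPM 1 or VPM 2 (adjusted p up to 0.116). In Kcnk2, VPM 1, 2 and 4 lay between 32.1 and 33.6 CPM and VPM 3 at 13.2, below every dLG library. Exons of an antisense gene cover 12.2% of its exon length. Kcnk9 (TASK3), with 10, 94 and 22 counts, was called higher in VPM than in dLG (adjusted p = 0.0624), a call lost without dLG 1, dLG 3, dLG 4, VPM 1, VPM 2 or VPM 4 (up to 0.163). The abundant Kcnk1 and Kcnk10 were not called.

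Of the inward rectifiers of the Kcnj family, 2 of 9 tested members were called, beside 28.3% of all genes. Both were called only between VPM and MGv, where 19.0% of all genes were called. Kcnj3, a subunit of the channels opened by G protein-coupled receptors, had 3.77, 4.47, 7.46 and 3.82 CPM in dLG, 8.99, 11, 7.32 and 7.89 in VPM and 0.376, 1.4 and 4.57 in MGv. The MGv libraries were spread widely, and all lay below those of VPM. It was 4.25-fold higher in VPM than in MGv (2.09 ± 0.56, adjusted p = 0.0245), and 10.1-fold higher without MGv 3 (log2 fold change 3.33, adjusted p = 0.0016). Exons of an antisense gene cover 31.1% of its exon length. Kcnj6, another subunit of these channels, averaged 14.8 ± 3.12, 9.39 ± 2.47 and 15.7 ± 2.51 CPM and was 1.66-fold higher in MGv than in VPM (VPM over MGv -0.73 ± 0.25, adjusted p = 0.0657), a call lost without MGv 2, MGv 3 or VPM 4 (adjusted p up to 0.215). Kcnj9, the most abundant of them, was not called.

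Library dLG 2 was the dLG library nearest to VPM in 13 of the 21 members called between dLG and VPM, and VPM 3 was the VPM library nearest to dLG in 17 of the 21. Both belong to the 3 libraries with low Hspa8. With a term for these 3 libraries in the fit, the dLG-VPM, dLG-MGv and VPM-MGv contrasts called 26, 14 and 20 members, among them all 21, 13 and 17 of the fit without it. In the 8 remaining libraries the counts were 26, 18 and 17, of which 21, 11 and 13 were shared. Shares of all genes were not computed for these fits. The term added Kcnab3 and Kcnn1 to Kcnip1 as enriched in dLG, Kcna1 to the VPM list and Kcnh8 to Kcnd2 in MGv.

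Proteins that assemble with potassium channels or anchor them, but carry other names, were read from a list of 23 genes, of which 19 were tested. Called were 2 between dLG and VPM (10.5% of those tested, beside 10.7% of all genes), 3 in dLG against MGv (15.8%, beside 16.1%) and 5 in VPM against MGv (26.3%, beside 19.0%). Lgi1, a secreted protein that slows the inactivation of Kcna channels, had 53.4 to 62.3 CPM in dLG, 28 to 37 in VPM and 32.4 to 36.3 in MGv. The dLG level exceeded that of VPM (0.90 on the log2 scale, adjusted p = 0.000665) and that of MGv (0.77, adjusted p = 0.00263), with no overlap. Akap5, which anchors kinases beside Kcnq channels, had 20.8 to 29.8 CPM in dLG, 12.8 to 19.6 in VPM and 9.92 to 11.6 in MGv, and all 3 contrasts were called (adjusted p = 0.0292, 0.000598 and 0.0485). Both genes were enriched in dLG.

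Further calls among the partners were in contrasts with MGv. Cntn2, an axonal adhesion protein that gathers Kcna channels beside the node, was higher in MGv than in dLG (adjusted p = 0.0215), and Dpp10, a partner of Kcnd pores, was higher in MGv than in VPM (adjusted p = 0.0653). Vapb and Calm2 were higher in VPM than in MGv (adjusted p = 0.0922 and 0.0779). Dpp6, the more abundant Kcnd partner, averaged 233, 226 and 186 CPM in dLG, VPM and MGv and was not called.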

How the data were processed

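Red cells sorted from 11 tissue samples were sequenced as single reads from amplified full-length cDNA. According to the labels and methods, the authors trimmed reads with Trim Galore 0.6.1 and cutadapt 2.3, aligned them to mm10 (GRCm38) with STAR 2.7.0d and deposited a table of raw read counts per Ensembl gene for each library, made with featureCounts of Subread 1.6.4. The strand and multi-mapping settings of the counting are not given in the sources used here. Groups were taken from the sample labels.

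Of 54752 gene identifiers, 54723 were named by GENCODE M21. Counts were filtered with filterByExpr, scaled by TMM and fitted with edgeR 4.0.16 (R 4.3.3) in 1 quasi-likelihood model with 3 nucleus means, the tests were two-sided and P values were BH-adjusted over 15907 genes. SE was taken as the size of the log2 fold change over the root of its F value. Kcn rows were then read out. Exon lengths are unions of annotated exons. The procedure was tested on simulated counts with 200 changed genes. For dLG-VPM, dLG-MGv and VPM-MGv it recovered 41.8, 55.2 and 39.4% of 2-fold changes. Of 4-fold changes it recovered 82.1, 80.3 and 80.6%, and 11.7, 4.26 and 9.09% of its calls were false. A member that was not called may therefore still differ between nuclei. Alternatives included voom in limma 3.58.1, DESeq2 1.42.0, other filters, scaling, thresholds, sample sets and a replicate block.

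Members, families, partners, marker lists and the libraries with low Hspa8 were chosen with earlier results of these data known. Named with values were called members with at least 5 CPM in some nucleus and the most abundant member of each family, and library values are given for those among the 8 smallest adjusted p of a contrast. Rare called members and the members quoted as not called were named after their values were seen. No source says whether same-numbered libraries shared brains, and nothing says that the pools within a nucleus were independent litters, so P values measure the spread between these libraries, which may be in part technical. The lowest chi-square per degree of freedom between libraries of a nucleus was 14, so none was a copy of another. Floors cover counting error only. Protein sequences were not used here. Some genes that met these rules are counted but not reported here.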

Additional observations from a re-analysis of the deposited data

Results flagged for a closer look

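In the 30 called members, each group of 4 libraries was examined for a highest or lowest library far from the others, which flagged 5 of 60 groups (dLG and VPM only), where chance flags about 1 in 20. Kcnd2 was at 45.5 CPM in dLG 2 and at 20.5 to 22.5 in the other dLG libraries. Kcnip1 was at 31.6 CPM in VPM 3 and at 10.5 to 14 in the other VPM libraries. Kcnk2 was at 13.2 CPM in VPM 3 and at 32.1 to 33.6 in the others. Kcna5 was at 0.172 CPM in dLG 2 and at 0 in the others, and Kcnh1 was at 0.67 CPM in dLG 1 and at 0 to 0.109 in the others, both levels of a few counts. Of the 5, 4 lie in dLG 2 or VPM 3, which have low Hspa8, and each of these 4 was displaced from dLG towards VPM or from VPM towards dLG. The part of that property in these values was not tested.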

How the results depend on the processing

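The 3 contrasts gave 51 calls of a member. Of these, 33 stayed past the threshold in every alternative fit that gave a value, leaving out each library included, and 18 were lost without at least 1 library; none reversed. Members scarce in a nucleus have wide errors, since a floor of 3 counts is up to 0.291 CPM. Shares of all genes were computed for the main fit and threshold only, so the counts that follow cannot be set beside a background. For dLG against VPM, 21 members became 36 with voom, 13 at an adjusted p under 0.05 and 11 to 24 without 1 library. For dLG against MGv, 13 became 10 to 19 without 1 library. For VPM against MGv, 17 became 11 at 0.05, 8 with an absolute log2 fold change over 1 and 11 to 18 without 1 library. The member enriched in dLG became 2 with DESeq2, 4 with voom, 2 with no filter, 3 with the term for the libraries with low Hspa8, 3 without those libraries and 1 to 2 without 1 library, with Kcnip1 always among them. The 5 enriched in VPM became 11 with voom, 3 with at least 10 counts in every library, 3 with counts thinned to the smallest total, 1 at 0.05, 2 with an absolute log2 fold change over 1 and 0 to 7 without 1 library. The member enriched in MGv became 2 with the low-Hspa8 term, 0 at 0.05, 0 with the fold limit and 0 to 1 without 1 library, and without VPM 3 that member was not Kcnd2. Beside those given with the results, fold changes moved by over 1.5 times with voom in Kcna5 dLG over VPM (-4.27 from -3.31), Kcnj3 VPM over MGv (3.06) and Kcne4 dLG over MGv (3.78) and VPM over MGv (5.46), in the 8 libraries outside the trio in Kcna5 (-6.56), Kcnk9 (-3.86 from -3.06) and Kcnip1 (3.09 from 2.48) dLG over VPM, and with thinned counts in Kcnk9 (-2.45, adjusted p = 0.132). Kcns3, with no MGv count, went from 6.90 to 5.72 with DESeq2 and 4.46 with voom. The causes were not tested.

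Whether replicate numbers pair the libraries could not be decided from residual correlations, since residuals cancel within a nucleus and so hold mean correlations near 0. The 10 same-numbered pairs had values of -0.2 (dLG 2 with MGv 2) to 0.48 (dLG 4 with VPM 4), with a mean of 0.015. The 30 other pairs ran from -0.31 (dLG 2 with VPM 4) to 0.27 (dLG 2 with VPM 3), with a mean of -0.0046. With the number as a replicate block, 16, 14 and 15 members were called in the 3 contrasts, 15, 10 and 14 of them shared, 12 of 51 calls were lost, and 2, 2 and 2 members were enriched in dLG, VPM and MGv.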

Other observations

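Over all start-site windows of the members, 92 windows of 67 genes, the share holding the AP-1 motif was 4.35% (7.81% of all windows), the E-box 7.61% (7.15%), the GC box 47.8% (35.7%) and the TATA box 5.43% (13.6%). No member window held the CRE, which 1.79% of all windows held. Windows of 1 gene can overlap, no test was made, and a match says only that the letters occur.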
